A study of Drosophila melanogaster with 3 samples.

Results

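Cathepsins are the proteases that break down protein inside lysosomes, and the 8 genes described here are 5 members of the papain-like cathepsin family, 1 aspartic cathepsin and 2 small protein inhibitors of cysteine cathepsins. They were picked by name from the 17768 genes listed for adult nephrocytes, and *CtsL1* was included because it was already known to be among the most abundant genes in these libraries. Their levels are therefore given as a description, without a test. The genes are *CtsL1*, *CtsB*, *CtsF*, *26-29-p* (now named *CtsK1*), *Swim*, *cathD*, *cer* and *Cys*, and all 8 were found in the 3 tables.

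Nephrocytes are large cells beside the heart tube of *Drosophila* that filter the hemolymph and take up its proteins by endocytosis. The material was from control females aged 4 days that carried *Hand*-GFP, *Klf15*-Gal4 and UAS-RFP over the CyO balancer, kept at 25 °C on food with 6% sucrose. Large cells with both GFP and RFP were sorted, and polyadenylated RNA was amplified as cDNA and sequenced in 3 libraries of this 1 condition, from 200 flies per replicate according to the methods and 100 to 200 nephrocytes according to the series description. Both reporters rest on regulatory sequences of nephrocyte genes, and *Hand* is also active in heart cells. No treated or mutant group stood beside these control libraries, so no comparison between conditions was possible.

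Proteins that nephrocytes take up travel through endosomes to lysosomes, where the acidic lumen activates cathepsins from inactive proenzymes. Cysteine cathepsins such as L, B and F use a cysteine in their active site, whereas cathepsin D uses aspartates. Cystatins bind and block the active site of cysteine cathepsins, and *cer* (crammer) encodes a small protein that resembles the inhibitory propeptide of cathepsin L.

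The libraries held 7808930 to 8801238 expected counts, the number of reads that RSEM assigned to genes. Levels are in TPM, which corrects for effective transcript length and sums to 1000000 in each library. The nephrocyte markers *Hand*, *Klf15*, *sns*, *kirre*, *Amnionless* and *Cubn* were all detected, with a summed level between 10620 and 12024 TPM. Of 10 hemocyte genes 3 were detected, with sums of 388 to 564 TPM, namely *crq*, *srp* and *He*. Of the other hemocyte genes *NimC1* had 17, 11 and 11 counts, *Hml*, *Pxn* and *PPO1* had at most 1 count in any library, and *eater*, *PPO2* and *lz* had none. Of 6 fat body genes 1 was detected, with sums of 9.37 to 300.6 TPM, namely *Obp99b*. Of the other fat body genes *Yp1*, a yolk protein gene, had 6, 4 and 16 counts, *apolpp* had 3, 3 and 1, and *Lsp1beta*, *Lsp2* and *Fbp1* had none. Muscle genes, 5 of 6 detected, summed to 4436, 2309 and 7534 TPM in libraries 1, 2 and 3. Of 5 midgut genes 1 was detected, with sums of 1.60 to 4.29 TPM. In bulk RNA, fewer cells of a type and less RNA per cell cannot be told apart.

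All 8 genes reached 1 TPM in every library, which was the case for 40.5% of the 17768 listed genes. All 8 also reached 100 TPM in every library, a level met by 5.68% of listed genes, while 25.4% reached 10 TPM and 47% reached 0.1 TPM. Together they made up 2.34%, 2.29% and 1.91% of all TPM in libraries 1, 2 and 3. The median of their mean levels was 1225 TPM, beside 20.9 TPM over the 7193 detected genes. Detected here means 1 TPM or more in every library.

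**Figure D1:**
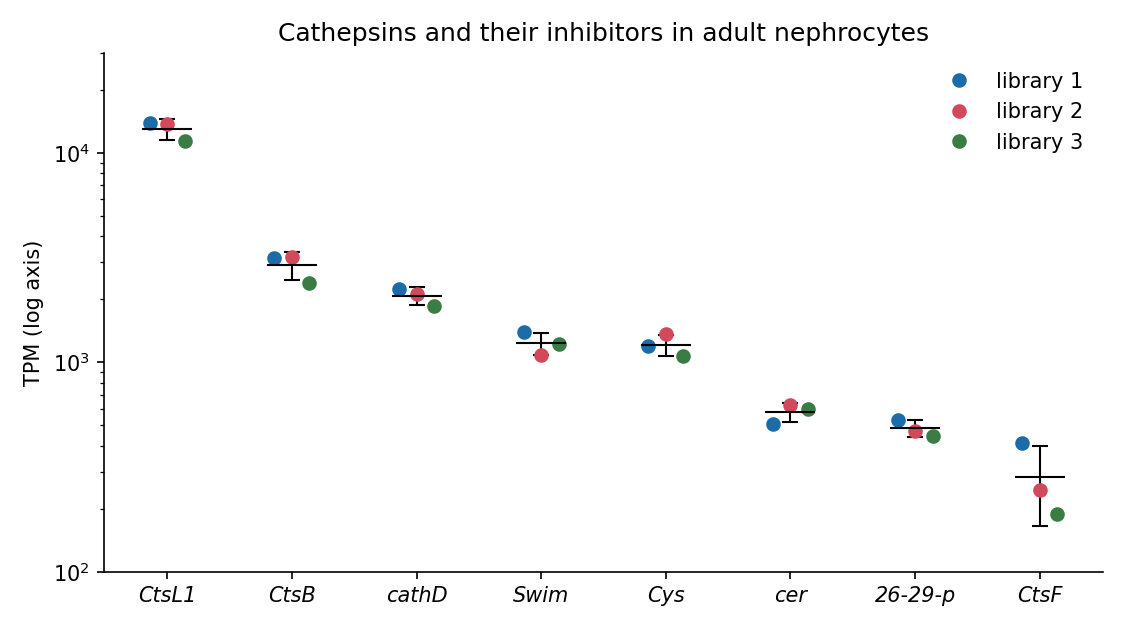
TPM of the 8 genes in each library on a log axis, ordered by mean. Points are single libraries, the horizontal bar is the mean and the error bars are SD over 3 libraries. *CtsL1* stands apart between 11347 and 13960 TPM, and *CtsF* has the widest relative spread, from 189 to 414 TPM.

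*CtsL1* encodes cathepsin L, an endopeptidase that cuts within protein chains and was formerly named *Cp1* in flies. Its level was 13960 TPM in library 1, 13764 TPM in library 2 and 11347 TPM in library 3 (13023 ± 1455, SD, n = 3). It ranked 6th of all listed genes in each of the 3 libraries. Its share of the summed TPM of the 8 genes was 59.6%, 60.2% and 59.3%, a spread of 0.46 percentage points (SD, n = 3). *CtsL1* is itself the largest part of that sum, which damps changes in the share. Outside genes of the mitochondrial genome, ribosomal RNA and ribosomal proteins it ranked 5th. The 3 genes just above it there were *Fer1HCH* and *Fer2LCH*, the ferritin subunits, at 19467 ± 2230 and 17313 ± 1623 TPM, and *CG15209* at 13459 ± 1732 TPM. The 3 just below were *eEF1alpha1*, a translation elongation factor, at 8231 ± 1096 TPM, *Amnionless*, part of the protein uptake receptor, at 5794 ± 591 TPM, and *CG4250* at 4940 ± 571 TPM (SD, n = 3). *CG15209* was above *CtsL1* in every library, although their means differed by less than either SD, and *CtsL1* was above *eEF1alpha1* in every library.

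In the BDGP6.54 annotation *CtsL1* (FBgn0013770) lies on the plus strand of chromosome 2R from 13960675 to 13967981, with 4 transcripts. The canonical one has 4 exons and 1113 coding bases. A second protein-coding gene, *CG42806*, lies on the same strand from 13964653 to 13965455 and shares 283 exon bases with it. Expected counts of both genes were not whole in any library, but their sum was whole in all 3 (within 0.01), so RSEM divided reads between them. *CG42806* held 309 to 500.02 counts, between 0.25% and 0.395% of those of *CtsL1*, which rested on at least 102185.

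*CtsB* and *cathD* came next. *CtsB* encodes cathepsin B, which can also trim dipeptides from the ends of proteins, and it was present at 3153, 3184 and 2400 TPM in libraries 1, 2 and 3 (2912 ± 444, SD, n = 3; rank 31). *cathD* encodes cathepsin D, the lysosomal aspartic protease, and was present at 2254, 2128 and 1862 TPM (2081 ± 200.0, SD, n = 3; rank 61). *CtsB* exceeded *cathD* in 3 of 3 libraries, with a log2 ratio of 0.48 ± 0.11 (SD, n = 3).

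The distance from *CtsL1* to these 2 genes was stable. The level of *CtsL1* was 4.43, 4.32 and 4.73 times that of *CtsB* in libraries 1, 2 and 3 (2.17 ± 0.07 on the log2 scale, SD, n = 3). It was 6.19, 6.47 and 6.09 times that of *cathD* (2.64 ± 0.04 on the log2 scale, SD, n = 3). The ratios thus varied less than the levels themselves, whose SD was 11.2% of the mean for *CtsL1*, 15.2% for *CtsB* and 9.61% for *cathD*. All 3 genes were lowest in library 3. *CtsB* (FBgn0030521) lies on the minus strand of chromosome X from 13779847 to 13782170, and *cathD* (FBgn0029093) on the minus strand of 2R from 7815339 to 7823569. The end of *cathD* overlaps 148 exon bases of *puml* on the opposite strand, and all counts of both genes were whole.

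The other papain-like members were less abundant. *Swim* encodes a secreted member of the family that was found in flies to bind the signalling protein Wingless, and whose mammalian relatives lack the catalytic cysteine. It was present at 1393, 1086 and 1227 TPM (1235 ± 154, SD, n = 3; rank 130) and was the only one of the 8 that was lowest in library 2. *26-29-p* encodes a protease named from a flesh fly enzyme of hemocytes and was at 533, 472 and 448 TPM (485 ± 44.1, SD, n = 3; rank 333). *CtsF* encodes cathepsin F, which in mammals carries an unusually long propeptide, and was at 414, 246 and 189 TPM (283 ± 117, SD, n = 3; rank 515). *Swim* lay below *CtsB* by 1.96-fold to 2.93-fold, and *CtsB* exceeded *CtsF* by 7.62-fold to 12.9-fold.

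Over the 3 libraries *CtsF* varied most, which rested on library 1. Its highest level, in library 1, was 2.19 times its lowest, in library 3, whereas the ratio of highest to lowest was between 1.19 and 1.33 for the other 7 genes. The SD was 41.3% of the mean for *CtsF* and between 9.09% and 15.2% for the others, beside a median of 13.8% over the 1199 genes with a mean of at least 100 TPM. In that set 94.7% of genes varied less than *CtsF*. Without library 1 the ratio of highest to lowest was 1.3015 for *CtsF*, below the 1.33 of *CtsB*, and the SD of *CtsF* was 18.5% of the mean. Its counts were 5117, 3014 and 2321. The level of *26-29-p* was 1.29 times that of *CtsF* in library 1 and 2.37 times in library 3, and it was higher in 3 of 3 libraries. The 10 hemocyte genes summed to 564, 388 and 489 TPM, with 3 detected. Of these *crq*, a scavenger receptor gene, was at 401, 327 and 327 TPM and *He* at 11.6, 4.31 and 4.03 TPM, both highest in library 1, while *srp*, at 150, 55.5 and 158 TPM, was highest in library 3. *NimC1*, at 1.24, 0.82 and 0.72 TPM, was also highest in library 1, and the other 6 hemocyte genes had at most 1 count in any library. The part of hemocyte RNA in the spread of *CtsF* was not tested. *CtsF* (FBgn0260462) lies on the minus strand of 3R from 5237651 to 5251745. *26-29-p* (FBgn0250848) lies on the plus strand of 3L from 13994231 to 13996571, and *Swim* (FBgn0034709) on the minus strand of 2R from 22189817 to 22202671, where it shares 70 exon bases with *Vps35* on the other strand.

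Both inhibitors were expressed. *Cys*, which encodes a cystatin, was present at 1204, 1363 and 1074 TPM (1214 ± 145, SD, n = 3; rank 134). *cer* was present at 511, 626 and 596 TPM (578 ± 59.7, SD, n = 3; rank 283). *Cys* was highest in library 2 and lowest in library 3, and *cer* was the only one of the 8 that was lowest in library 1. *Cys* exceeded *cer* in 3 of 3 libraries, by 1.80-fold to 2.36-fold, and the log2 ratio of *cer* to *Cys* was -1.07 ± 0.20 (SD, n = 3). Both transcripts are short, 497 bases for *cer* and 484 for *Cys*, against mean lengths of 1396 to 1989 for the other 6 genes, and their mean effective lengths were 257 and 244 bases. Their TPM therefore rests strongly on RSEM's estimate of effective length, and their lowest counts were 995 and 1958.

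*Cys* (FBgn0004629) lies on the minus strand of 3R from 14569103 to 14569644. The noncoding *asRNA:CR44095*, on the opposite strand, shares 439 of its 484 exon bases and was listed at 112, 133 and 126 TPM. Counts of both were not whole in any library and their sum was whole in all 3. The reads assigned to *asRNA:CR44095* amounted to 20.4%, 21.2% and 25.7% of those assigned to *Cys*. RSEM thus divided reads between this pair, and those reads were not told apart by strand. The strand setting itself is not given in the sources used here, and the level of *Cys* depends on how the reads were divided. *cer* (FBgn0034443) lies on the minus strand of 2R from 19396215 to 19396772. It shares 212 exon bases with *asRNA:CR45925* on the opposite strand, whose reads were at most 1.51% of its own. All counts of *cer* and *asRNA:CR45925* were whole, as were those of *Swim* and *Vps35*.

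Cysteine cathepsin transcripts outnumbered those of the inhibitors. The levels of *CtsL1*, *CtsB*, *CtsF* and *26-29-p* summed to 18059, 17666 and 14383 TPM, and those of *cer* and *Cys* to 1715, 1989 and 1670 TPM. The first sum was 10.5, 8.88 and 8.61 times the second (3.22 ± 0.16 on the log2 scale, SD, n = 3). For *CtsL1* and *cer* alone the factor was 27.3, 22.0 and 19.0 (4.49 ± 0.26 on the log2 scale, SD, n = 3). Both factors were highest in library 1. They depend on the correction for length and on the genes counted. In CPM, which has no such correction, the log2 ratios were 5.51 for the sums and 6.71 for *CtsL1* and *cer*. With 3 further cystatin genes among the inhibitors the log2 ratio of the sums in TPM was 2.37. These are ratios of RNA and give no ratio of protein.

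**Figure D2:**
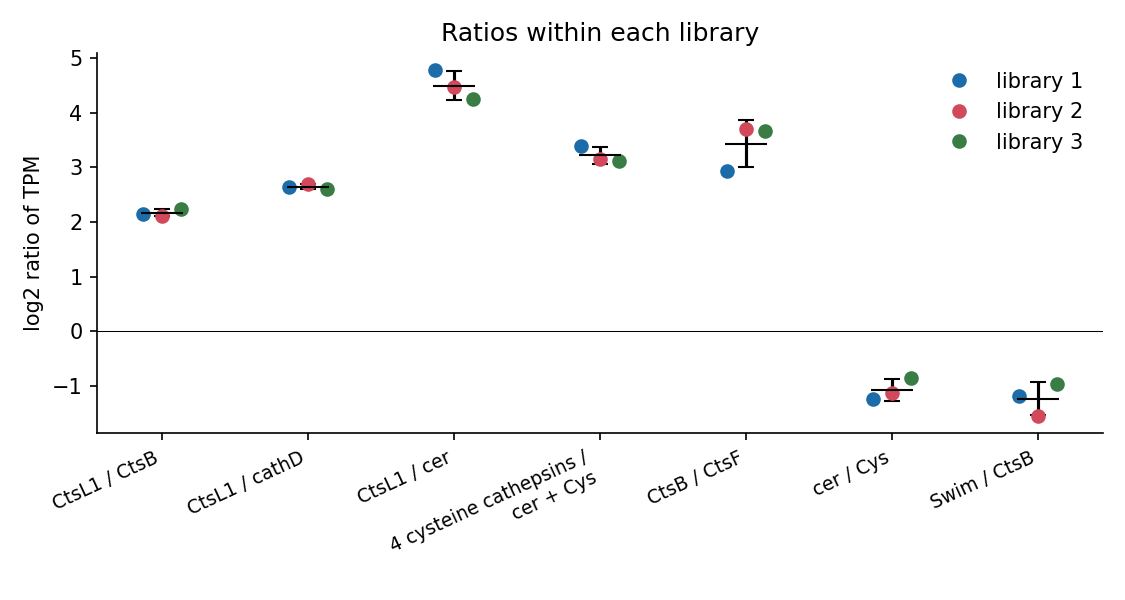
Log2 ratios of TPM within each library for pairs of genes and for the summed cysteine cathepsins against the summed inhibitors. Points are single libraries, horizontal bars are means and error bars are SD over 3 libraries. The ratios of *CtsL1* to *CtsB* and to *cathD* vary least, with SD of 0.07 and 0.04.

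By mean level the order was *CtsL1*, *CtsB*, *cathD*, *Swim*, *Cys*, *cer*, *26-29-p* and *CtsF*. Of the 7 neighbouring pairs in that order, 5 kept the same direction in 3 of 3 libraries. *Swim* and *Cys* did not differ beyond their spread, with a log2 ratio of 0.02 ± 0.31 and *Cys* higher in library 2. Nor did *cer* and *26-29-p*, with a log2 ratio of 0.25 ± 0.27 and *26-29-p* higher in library 1. For *26-29-p* over *CtsF* the log2 ratio of 0.85 ± 0.45 was less than 2 times its SD. The ratio of *cathD* to *Swim* was 0.76 ± 0.19 on the log2 scale (SD, n = 3).

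Of the 8 genes, 6 were lowest in library 3, where 13.8% of the 7193 detected genes were lowest. None was highest in library 3, where 52.3% of detected genes were highest. Library 1 held the lowest value of 1 gene, *cer*, beside 37.8% of detected genes, and the highest value of 5, beside 22.9%. Library 2 held the lowest value of *Swim* alone, beside 48.4%, and the highest value of 3 genes, beside 24.8%. The median log2 ratio of library 3 to library 1 was -0.26 over the 8 genes and 0.17 over all detected genes, and *cer* alone was above 0, at 0.22. Library 3 was singled out after the values were seen. In that library all 5 detected muscle genes were highest, at 7534 TPM in sum. The fat body gene *Obp99b* was also highest there at 299 TPM, against 8.73 and 12.8 TPM in libraries 1 and 2. Among the remaining fat body genes *Yp1* was highest there at 16 counts and *apolpp* lowest at 1 count. *Lsp1beta*, *Lsp2* and *Fbp1* had no count in any library. Of the 6 nephrocyte genes, *Hand*, *Klf15* and *Cubn* were lowest there, *Amnionless* was lowest in library 1, and *sns* and *kirre* in library 2. The summed nephrocyte genes were at 11488, 12024 and 10620 TPM. The part of these cell types in the lower levels of cathepsins was not tested. With TMM scaling 6 of the 8 genes were again lowest in library 3, beside 23.4% of detected genes, and with the trend on transcript length removed it was again 6, beside 29.3%. These shares cover detected genes of every level, with a median of 20.9 TPM. Of the rank neighbours of *CtsL1*, *Fer1HCH*, *Fer2LCH* and *CG15209* were also lowest in library 3. *eEF1alpha1* was lowest in library 2, and *Amnionless* and *CG4250* in library 1.

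**Figure D3:**
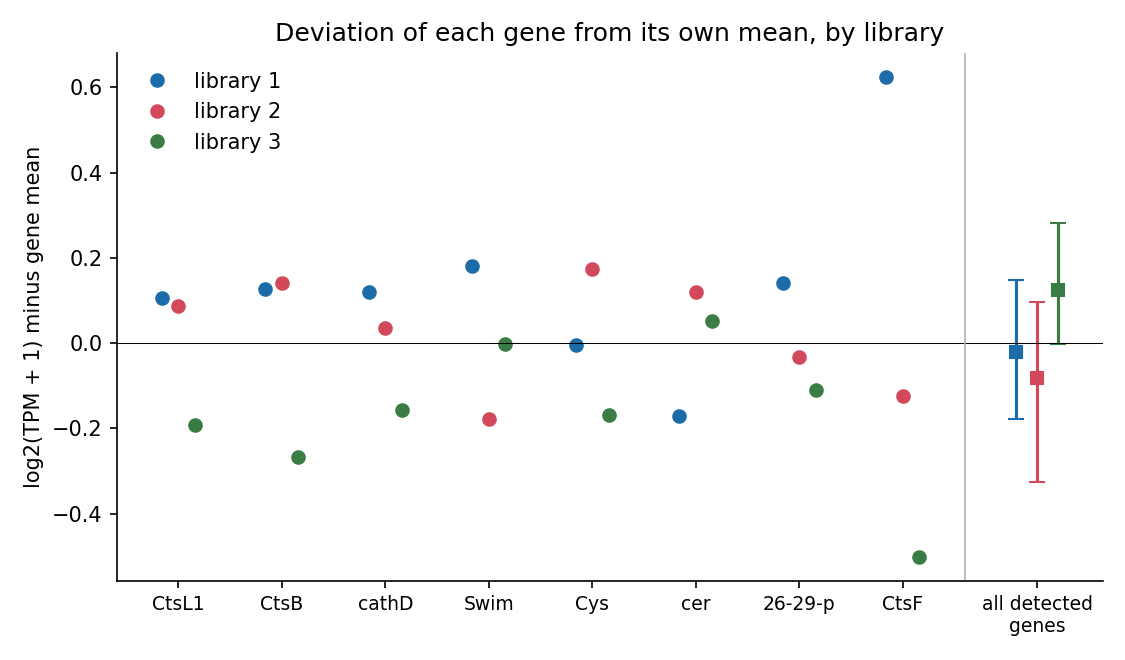
Log2(TPM + 1) of each gene minus its own mean over the 3 libraries, with the median (square) and quartiles (bars) of 7193 detected genes at the right. *CtsL1*, *CtsB*, *cathD*, *26-29-p*, *CtsF* and *Cys* are lowest in library 3, where the median of all detected genes is 0.13 above 0.

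Library 2 was set against the other libraries on the log2 scale. The difference between its value and the average of libraries 1 and 3 ranged from -0.29 for *CtsF* to 0.26 for *Cys*, with a median of 0.08, beside -0.13 over all detected genes. It was above 0 for 5 of the 8 genes and for 37.5% of detected genes. The 2 short inhibitors were among the 3 highest, with *cer* at 0.18, and *Swim*, with the longest mean transcript, was at -0.27. *CtsF* and *26-29-p*, with mean lengths of 1875 and 1872 bases, were at -0.29 and -0.05. With the trend on transcript length removed, the value was 0.11 for *Cys*, 0.04 for *cer* and -0.17 for *Swim*. For *CtsF* it was -0.24 and for *26-29-p* 0.013. *cer* lay below *CtsB* before and after that step (*CtsB* at 0.15 after it). It lay below *CtsL1*, at 0.08, only after it. The part of transcript length in these values was not tested.

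The genes whose course over the 3 libraries was most like that of *CtsL1* were *CG13603*, *CG3662* and *Fuca*, a lysosomal fucosidase gene. The measure was the summed absolute difference of log2 deviations, 0.019, 0.030 and 0.032, among 2019 genes with a mean of at least 50 TPM. With 3 points of 1 condition many genes lie close. *cathD* was the 28th nearest at 0.099, *CtsB* the 44th at 0.15, *Cys* the 92nd at 0.22 and *26-29-p* the 107th at 0.24. Further away were *Swim*, the 600th at 0.53, *cer*, the 656th at 0.56, and *CtsF*, the 1635th at 1.04.

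Among 7 other papain-family genes, 5 were detected, beside 40.5% of all listed genes. The most abundant was *CG6357*, a gene without a given name. It was at 2092, 2574 and 1619 TPM (2095 ± 477, SD, n = 3; rank 58). It lay below *CtsB* in 3 of 3 libraries and above *cathD* in 1 of 3, with a log2 ratio to *cathD* of -0.01 ± 0.25 (SD, n = 3), so the pair did not differ beyond their spread. Like *CtsB* it was highest in library 2 and lowest in library 3. It lies on 2R from 13840053 to 13841743 in a run of 8169 bases with *CG6347* (now named *CtsL2*) and *CG6337*. These neighbours were at only 10.2 ± 3.46 and 9.91 ± 1.89 TPM (SD, n = 3). This run is 118931 bases from *CtsL1*. *CG1440*, a relative of bleomycin hydrolase, was at 120 ± 10.5 TPM (SD, n = 3). *CG5367* (now named *CtsL4*) and *CG11459* (now named *CtsL3*) had no count in any library, and 3 counts would correspond to at most 0.344 and 0.389 TPM.

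Of the pepsin-family genes examined, only *cathD* had counts. The other 12, among them *Bace*, had no count in any library. Of all listed genes 40.5% reached 1 TPM and 47% reached 0.1 TPM in every library. For each of the 12 genes 3 counts would correspond to at most 0.298 to 0.408 TPM. Expression of these genes was thus not detectable at this depth.

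Of 3 other cystatin genes, 2 were abundant, and both lie beside *Cys*. *CG31313* was at 788, 957 and 742 TPM (829 ± 113, SD, n = 3) and *CG8066* at 556, 607 and 643 TPM (602 ± 43.7, SD, n = 3). With *Cys* they occupy 3213 bases of 3R from 14566432 to 14569644, all on the minus strand, and together reached 2645 ± 249 TPM (SD, n = 3). *Cys* exceeded *CG31313* in 3 of 3 libraries with a log2 ratio of 0.55 ± 0.05, and *CG8066* with a log2 ratio of 1.01 ± 0.23 (SD, n = 3). *CG31313* was highest in library 2 as *Cys* was, whereas *CG8066* was highest in library 3. *CG8066* and *cer* did not differ beyond their spread, at 0.06 ± 0.09 on the log2 scale. *CG15369*, on chromosome X, had no count, and 3 counts would correspond to at most 1.59 TPM. These are the 3 genes added to the inhibitors in the ratio above, a choice made after seeing the data.

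**Figure D4:**
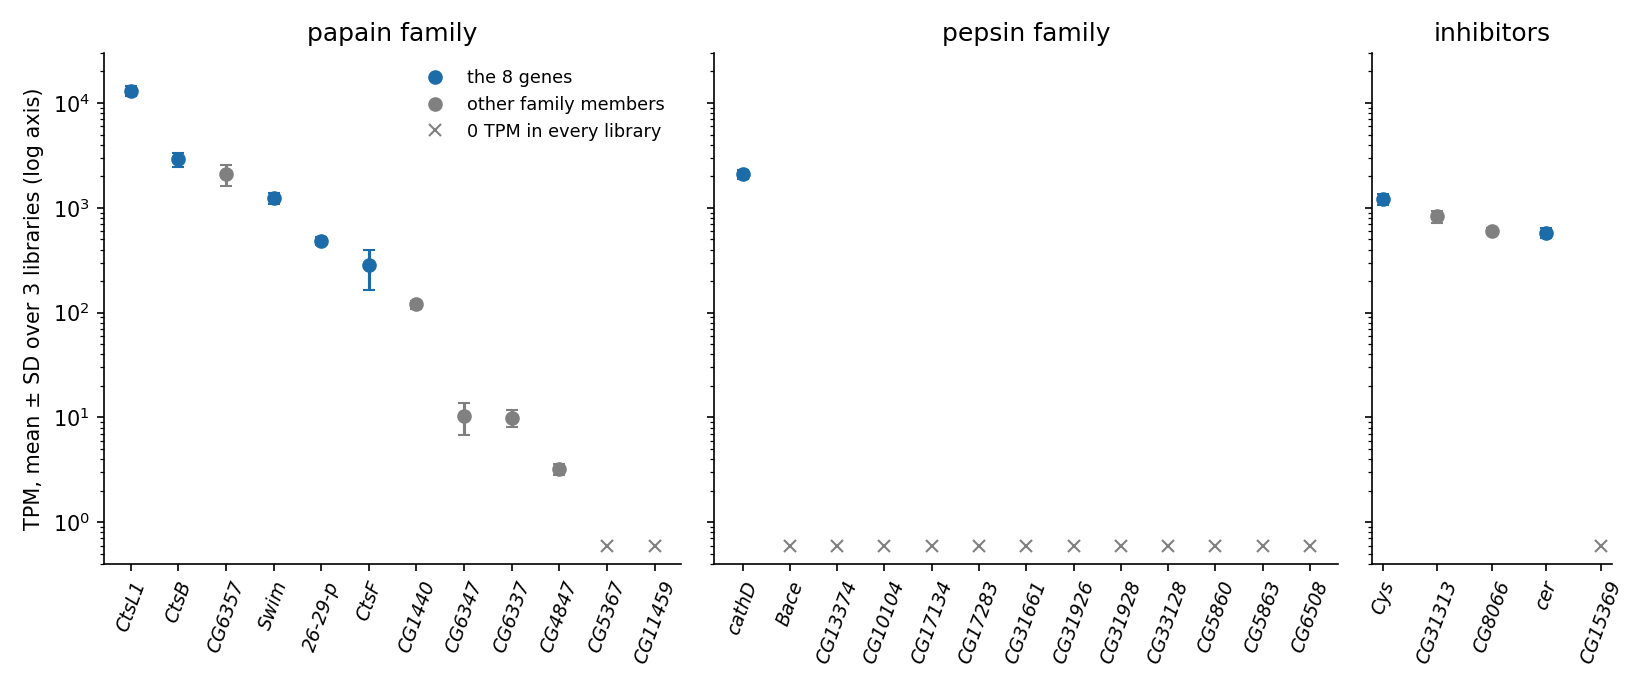
Mean TPM of every gene examined in the papain family, the pepsin family and the inhibitors, on a log axis with SD over 3 libraries. Blue points are the 8 genes, grey points other family members, and crosses genes at 0 TPM in every library. Only *cathD* has counts in the pepsin family, and *CG6357*, *CG31313* and *CG8066* lie within the range of the 8 genes.

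Some genes that accompany cathepsins were also expressed. Of 4 sorting and activation genes all 4 were detected, beside 40.5% of all listed genes, with a median of 43.9 TPM. *Sap-r*, which encodes the precursor of saposins, cofactors of lipid breakdown in lysosomes, was at 1817 ± 256 TPM (SD, n = 3). *Lerp*, a relative of the mammalian mannose 6-phosphate receptor, was at 90.1, 40.2 and 81.2 TPM. *Mitf*, a transcription factor of lysosomal genes, was at 17.3 ± 2.24 TPM (SD, n = 3). Of 11 serine carboxypeptidase genes 5 were detected, a share near the 40.5% of all listed genes. Among them *CG9953* at 4638 ± 801 TPM (rank 19) exceeded *CtsB*, followed by *CG4572* at 701 ± 88.3 and *CG2493* at 525 ± 47.7 TPM (SD, n = 3). These 3 were lowest in library 3, as were 13.8% of detected genes. The other 2 detected carboxypeptidase genes were *CG31823* at 30.3 ± 10.4 TPM and *CG31821* at 6.03 ± 2.36 TPM (SD, n = 3). Both were lowest in library 2, as were *Sap-r*, *Lerp*, *Mitf* and 48.4% of detected genes. *Gnptab*, the least abundant of the 4 sorting and activation genes at 2.97, 2.94 and 2.76 TPM, was lowest in library 3.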

How the data were processed

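Adult nephrocyte RNA was measured in 3 libraries, and the labels put all of them in 1 group. Per the submitters' processing notes, STAR 2.7.5c served for mapping and RSEM 1.3.3 for quantification, on a FlyBase annotation of BDGP Release 6. The deposited expected counts are RSEM's estimated counts and are not normalized. The deposited TPM and FPKM values come from the same RSEM run of the authors and are corrected for effective length, and FPKM served only as an alternative. Transcript lengths are RSEM's averages over isoforms.

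Between 8.27% and 8.43% of counts per library were not whole within 0.005. Amplified reads are not independent molecules, so counting errors and limits from 3 counts cover counting only. The study's methods give 3 replicates of 200 flies each. For strand setting and read length, not given in the sources used here, nothing was assumed.

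Gene IDs were matched by symbol, and for 1 member and 5 of 70 list genes through RefSeq synonyms. Coordinates are from the BDGP6.54 annotation (Ensembl release 115), on the same assembly. Members and lists were chosen with earlier results of these data known. The named genes are the members, the leading detected genes of each list, and the rank and pattern neighbours of *CtsL1*. Named after their values were seen were *CG6347*, *CG6337*, *CG5367*, *CG11459*, *Bace*, *CG15369*, *CG31823*, *CG31821* and *Gnptab*. So were the marker genes given in the text, and genes that overlap a member.

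Means and SD are over 3 libraries of TPM, and ratios were taken within each library, so no p-value was computed. Spread was also estimated with edgeR 4.0.16 (intercept only, expected counts rounded, at least 10 in every library), which draws single genes strongly toward the common value. That step was tested on simulated data. DESeq2 1.42.0 size factors, TMM, CPM, FPKM, other thresholds and pseudocounts, a lowess adjustment for length (fraction 0.3) and leaving out each replicate were alternatives, the last also for the spread of single genes after seeing the data. Planned comparisons of protein and promoter sequence were not run. Other tools were matplotlib 3.10.9, statsmodels 0.14.6, pandas 2.3.3 and numpy 2.4.6 in Python 3.11.15, and R 4.3.3.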

Additional observations from a re-analysis of the deposited data

How the results depend on the processing

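Of 195 alternative values, 165 counted as unchanged, 28 moved and 2 changed sign. Unchanged means within the spread between libraries, or within 1.5 times for counts and for the spread by edgeR. Leaving out each replicate moved none of 24 levels, 24 ranks, 21 ratios and the 2 shares by more than 1 SD, which for a mean of 3 values holds by construction. The 2 sign changes were in log2 ratios of library 2 near 0 once the trend on length was removed, for *cathD* (0.05 to -0.00022) and *26-29-p* (-0.05 to 0.013).

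Without mitochondrial and ribosomal RNA genes in the total, levels rose to 15255 TPM for *CtsL1*, 3414 for *CtsB*, 2437 for *cathD*, 567 for *26-29-p*, 1443 for *Swim*, 675 for *cer* and 1422 for *Cys*. Ranks among genes other than mitochondrial, ribosomal RNA and ribosomal protein genes were 5 for *CtsL1*, 17 for *CtsB*, 29 for *cathD*, 243 for *26-29-p*, 65 for *Swim*, 195 for *cer* and 68 for *Cys*. In CPM, which does not correct for length and so lowers short transcripts, ranks were 3 for *CtsL1*, 43 for *cathD*, 233 for *26-29-p*, 52 for *Swim*, 1268 for *cer* and 640 for *Cys*. In CPM the log2 ratio of *CtsL1* was 2.696 to *cathD* and 6.71 to *cer*, that of *CtsB* to *CtsF* 2.97, that of *Swim* to *CtsB* -0.67, and that of cysteine cathepsins to inhibitors 5.51. The share of *CtsL1* was 61.6% in CPM. With *Swim* and *CG6357* added to the cysteine cathepsins, a choice made after seeing the data, their log2 ratio to the inhibitors in TPM was 3.48. With the other cystatins added to the inhibitors instead, it was 2.37. The median spread of the 8 genes by edgeR was 22.0%, and 17.9% to 26.4% when a replicate was left out. Over all fitted genes the median was 23.8%, and 17.4% to 28.5% when a replicate was left out. No paired analysis was possible because there was 1 group.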
